A study of Mus musculus with 20 samples.

Results

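The flanks of promoters are described here as they were methylated in mouse liver at birth and at weaning, namely the DNA that lies more than 1 kb and at most 5 kb from the transcription start site (TSS) of the nearest protein-coding gene, on either side of it. Members were chosen by position and read coverage, not by methylation level, though with earlier results of these data known. An autosomal CpG was kept when it had at least 10 reads in all 20 libraries. Its nearest TSS, taken as the start of the gene by strand, had to fall in that window. The rule found 67934 of 598055 autosomal CpGs (11.4%), which were summed in 200-bp bins to 17057 of 154862 bins (11.0%) near 6998 of 20794 genes. On the upstream side there were 18521 CpGs in 5847 bins of 3131 genes, on the downstream side 49413 CpGs in 11210 bins of 4943 genes, and 1076 genes had bins on both sides. A bin held a median of 3 CpGs and at most 34, and 4971 bins (29.1%) held 1 CpG.

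The methylomes came from reduced representation bisulfite sequencing (RRBS), in which DNA is cut at MspI sites, so that CpG-rich stretches are favoured, and bisulfite turns unmethylated cytosines into bases read as T. Livers of C57BL/6J mice labelled male were taken in 4 groups of 5: AME-d21, Con-d21, AME-d0 and Con-d0. AME stands for an adverse maternal environment, a Western-style diet given to the dam from before mating through lactation, with repeated changes of her housing late in pregnancy, and Con dams ate a control diet and were not stressed. Pups at d0 were delivered by C-section at term, and pups at d21, born naturally to other dams, had been nursed until weaning. AME and Con therefore differ in diet and stress together, and d21 differs from d0 also in birth and suckling. For d21 alone, culled litters and a fast and isoflurane before killing are also described. The labels number the samples of a group but name no litter, so the p-values measure the spread between these 20 livers. The tissue was whole liver, in which a change within a cell type and a change in how common that cell type is cannot be told apart, and the files hold methylation only, so the tissue was not checked by marker expression.

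Libraries held between 23248139 and 45769589 reads over CpGs, and the median flank bin had between 60 and 117 reads per library. The library labelled AME-d21 replicate 4 went against its label of male: it had 2.88 reads on chromosome X per 100 autosomal reads where the other AME-d21 libraries had 1.53 to 1.55, and 16.2 reads on the short arm of Y per 1000000 where they had 189 to 214. AME-d0 replicates 1 and 3 stood apart by low methylation, and Con-d0 replicate 5 by high methylation and, with Con-d0 replicate 4, by depth. The main counts and mean differences are given with and without AME-d21 replicate 4, AME-d0 replicates 1 and 3, or Con-d0 replicate 5. Con-d0 replicate 4 was left out only in the fits that left out each library in turn.

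DNA methylation at CpGs is written by the DNMT enzymes and removed by dilution at cell division or by the TET enzymes. CpG islands around active or poised promoters are held free of it, while most other CpGs of a differentiated cell are methylated. The strip between them, called the shore where it borders an island, is where methylation differs most between tissues and where many enhancers and first introns lie. The fetal liver is also a site of blood formation, which moves to the bone marrow and spleen around birth, while hepatocytes take on their adult metabolic programme between birth and weaning.

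Flank bins that carry the age changes described further on are shown first, to let their CpGs be seen. All are 200 bp of the GRCm38 (mm10) plus strand, 5′ to 3′, with the CpGs measured in all 20 livers in capitals and other CpGs left in lower case. Mn1 (chr5:111420201-111420400, coding exon, 2849 bp downstream of the TSS), Otx1 (chr11:22005401-22005600, between genes, 2604 bp upstream) and Patz1 (chr11:3291401-3291600, coding exon, 2628 bp downstream) are shown as bins that were nearly or largely unmethylated at d0 and methylated at d21, with 3 of 20, 4 of 4 and 10 of 10 CpGs measured.
Mn1: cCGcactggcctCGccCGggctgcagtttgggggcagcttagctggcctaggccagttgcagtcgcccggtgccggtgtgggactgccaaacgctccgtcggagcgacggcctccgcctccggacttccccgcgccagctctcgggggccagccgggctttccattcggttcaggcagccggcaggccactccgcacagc
Otx1: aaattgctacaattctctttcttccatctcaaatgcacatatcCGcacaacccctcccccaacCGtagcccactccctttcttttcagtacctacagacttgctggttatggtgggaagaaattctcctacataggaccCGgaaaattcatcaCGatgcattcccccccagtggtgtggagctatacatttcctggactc
Patz1: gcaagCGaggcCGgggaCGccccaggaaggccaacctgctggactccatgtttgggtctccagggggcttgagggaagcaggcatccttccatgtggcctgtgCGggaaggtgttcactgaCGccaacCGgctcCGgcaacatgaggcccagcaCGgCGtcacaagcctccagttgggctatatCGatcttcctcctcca
Mief2 (chr11:60729401-60729600, intron, 1111 bp downstream) and Rhoc (chr3:104789801-104790000, intron, 1565 bp downstream) are shown as bins that lost most of their methylation, with 4 of 4 and 4 of 5 CpGs measured.
Mief2: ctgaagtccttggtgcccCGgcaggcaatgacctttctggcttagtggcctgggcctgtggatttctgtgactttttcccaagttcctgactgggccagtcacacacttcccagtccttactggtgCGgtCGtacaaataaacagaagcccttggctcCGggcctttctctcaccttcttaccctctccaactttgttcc
Rhoc: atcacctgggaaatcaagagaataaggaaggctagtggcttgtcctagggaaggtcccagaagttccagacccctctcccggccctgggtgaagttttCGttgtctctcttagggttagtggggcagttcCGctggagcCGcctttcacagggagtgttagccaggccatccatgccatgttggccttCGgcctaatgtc
Pck1 (chr2:173156001-173156200, coding exon, 3012 bp downstream) and Tpi1 (chr6:124811401-124811600, coding exon, 2712 bp downstream) stand for liver glucose metabolism, with 2 of 4 and 2 of 4 CpGs measured.
Pck1: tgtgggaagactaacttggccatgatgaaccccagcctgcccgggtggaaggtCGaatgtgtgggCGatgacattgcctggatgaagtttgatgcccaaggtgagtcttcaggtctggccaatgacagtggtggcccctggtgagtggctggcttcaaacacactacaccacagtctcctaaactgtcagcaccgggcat
Tpi1: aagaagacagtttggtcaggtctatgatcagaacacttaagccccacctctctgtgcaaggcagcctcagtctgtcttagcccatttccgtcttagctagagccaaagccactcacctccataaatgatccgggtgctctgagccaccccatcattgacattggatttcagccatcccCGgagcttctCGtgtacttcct
Lyl1 (chr8:84704001-84704200, coding exon, 2610 bp downstream), of blood progenitors, is shown as a CpG-dense bin that gained methylation, with 7 of 19 CpGs measured.
Lyl1: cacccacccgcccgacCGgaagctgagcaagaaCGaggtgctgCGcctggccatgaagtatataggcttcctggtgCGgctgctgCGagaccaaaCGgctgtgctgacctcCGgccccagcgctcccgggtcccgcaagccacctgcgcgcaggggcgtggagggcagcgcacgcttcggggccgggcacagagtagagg
GC content ran from 47.5% in the Otx1 bin to 72% in the Mn1 bin, and the bins that fell in this selection held 4 or 5 CpGs of any kind, while those that rose held between 4 (Otx1) and 20 (Mn1).

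The flanks lay between 2 unlike regions. Of the 29930 bins within 1 kb of a TSS, 82.2% were in CpG islands, and of the 107875 bins beyond 5 kb, 7.02% were. The 2 sides of the flank differed in this: on the upstream side 15.9% of bins were in islands and 27.2% in shores (within 2 kb of an island), and 59.0% lay between genes, while on the downstream side 36.8% were in islands and 28.0% in shores, with 46.2% in exons and 51.0% in introns. Methylation was low where islands were common. In the 500 bp that begin 1 kb downstream of the TSS, where 56.9% of bins were in islands, the mean level was 20.7% in AME-d21, 20.6% in Con-d21, 17.6% in AME-d0 and 18.1% in Con-d0. Upstream at the same distance, where 26.4% of bins were in islands, it was 42.9%, 42.7%, 36.8% and 37.8% in that order of groups. By 4.5 to 5 kb the mean had reached 63.3%, 63.5%, 54.5% and 55.9% upstream and 58.0%, 58.2%, 50.7% and 51.8% downstream. The mean therefore changed more across the downstream flank than across the upstream flank, in all 4 groups.

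**Figure D1:**
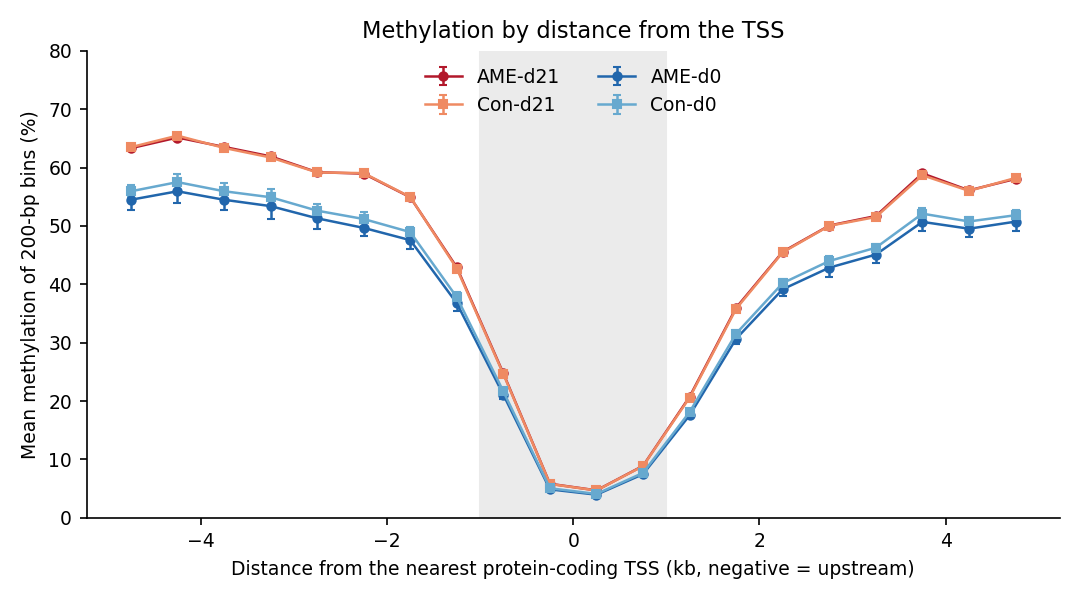
Mean methylation (percent, vertical axis) of 200-bp bins by distance from the nearest TSS (kb, horizontal axis), one line per group, 5 livers each. The dip at the TSS is shared by all groups, the d21 lines lie above the d0 lines across both flanks, and the AME and Con lines of 1 age lie close together.

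Outside CpG islands the flank still sloped. In the 500 bp that begin 1 kb upstream, bins outside islands averaged 55.6% in AME-d21, 55.4% in Con-d21, 48.2% in AME-d0 and 49.5% in Con-d0, and at the same distance downstream they averaged 42.6%, 42.4%, 36.8% and 38.0%. Within the flanks as a whole, island bins averaged 8.23%, 8.12%, 6.09% and 6.25%, shore bins 49.5%, 49.3%, 42.6% and 43.9%, and the other bins 71.9%, 71.9%, 62.6% and 64.2%, again for AME-d21, Con-d21, AME-d0 and Con-d0. Away from islands and shores the sides were close, with 72.6% upstream and 71.2% downstream in AME-d21 and 64.6% upstream and 63.9% downstream in Con-d0.

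Over all flank bins, methylation averaged 46.7, 46.9, 47.2, 46.6 and 46.7% in the 5 AME-d21 livers and 46.5, 46.7, 46.7, 46.8 and 46.9% in the 5 Con-d21 livers. At d0 it averaged 38.4, 41.4, 39.6, 40.7 and 41.4% in AME-d0 livers and 41.0, 40.9, 41.1, 41.1 and 42.8% in Con-d0 livers. Every d21 liver lay above every d0 liver, and the d21 livers lay closer to each other than the d0 livers did. The group means were 46.8 ± 0.221% (AME-d21), 46.7 ± 0.132% (Con-d21), 40.3 ± 1.29% (AME-d0) and 41.4 ± 0.813% (Con-d0; SD, n = 5 each). The mean therefore differed by 6.52 percentage points between AME-d21 and AME-d0 and by 5.33 points between Con-d21 and Con-d0. On the upstream side the means were 57.4 ± 0.233%, 57.4 ± 0.201%, 49.3 ± 1.68% and 50.7 ± 1.11%, and downstream they were 41.3 ± 0.219%, 41.2 ± 0.0983%, 35.6 ± 1.08% and 36.6 ± 0.66%, in AME-d21, Con-d21, AME-d0 and Con-d0. Without replicates 1 and 3 the AME-d0 means were 50.4 ± 0.395% upstream and 36.3 ± 0.376% downstream (n = 3). The regions on either side of the flanks kept their order: bins within 1 kb of a TSS averaged 7.2%, 7.17%, 6.08% and 6.26%, and bins beyond 5 kb averaged 73.0%, 73.0%, 63.4% and 65.1%.

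**Figure D2:**
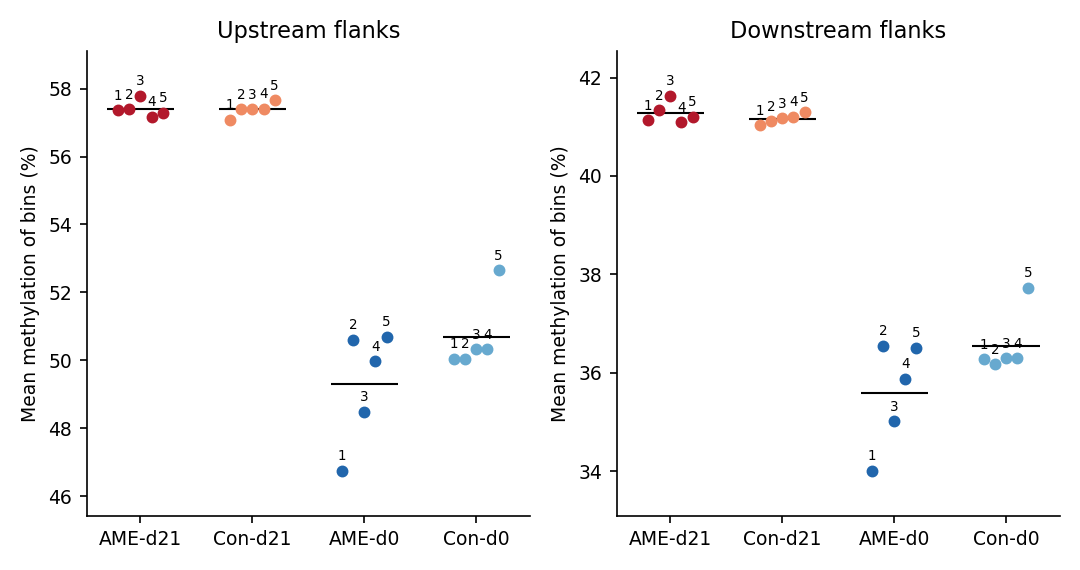
Mean methylation (percent) of the upstream and downstream flank bins in each liver, with a line at the group mean of 5 livers and replicate numbers beside the points; the vertical axes do not start at 0. The d21 livers lie above the d0 livers on both sides, and AME-d0 replicates 1 and 3 lie lowest.

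The age difference came with a change in the shape of the distribution. Bins at 90% or more made up 19.1 ± 0.560% of flank bins in AME-d21 and 19.1 ± 0.292% in Con-d21, against 5.12 ± 0.887% in AME-d0 and 5.74 ± 0.976% in Con-d0. Bins between 50 and 90% made up 31.9% and 31.9% in AME-d21 and Con-d21, against 41.6% and 42.1% in AME-d0 and Con-d0. Bins under 10% were 34.1% and 34.3% of all in AME-d21 and Con-d21, and 37.4% and 36.9% in AME-d0 and Con-d0. The spread of a bin between livers was similar in the groups: over the 6038 flank bins with a level between 20 and 80%, the median SD was 6.42 points in AME-d21, 6.10 in Con-d21, 6.87 in AME-d0 and 6.34 in Con-d0.

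Each bin was then tested with limma on log2((methylated + 1)/(unmethylated + 1)), over all 154862 autosomal bins and with Benjamini-Hochberg adjustment, and was called when the adjusted p was under 0.05 and the difference of group means, written Δme in percentage points, was at least 10. In Con-d21 over Con-d0, 4173 flank bins rose (24.5%) and 829 fell (4.86%), where 27.6% of all autosomal bins rose and 3.29% fell. In AME-d21 over AME-d0, 4873 flank bins rose (28.6%) and 718 fell (4.21%), where 33.4% of all bins rose and 2.89% fell. The flanks thus had a lower share of rises and a higher share of falls than all bins in both comparisons. The median Δme of flank bins was 3.45 in the Con comparison and 4.39 in the AME comparison, against 5.81 and 7.15 over all bins. Without AME-d21 replicate 4 the AME comparison gave 4752 rises and 694 falls, and without AME-d0 replicates 1 and 3 it gave 3659 and 668. Without Con-d0 replicate 5 the Con comparison gave 4312 rises and 790 falls.

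The 2 sides had different shares. Upstream, 1759 bins rose (30.1%) and 244 fell (4.17%) in Con-d21 over Con-d0, and downstream 2414 rose (21.5%) and 585 fell (5.22%). In AME-d21 over AME-d0 the upstream side had 2092 rises (35.8%) and 229 falls (3.92%), and the downstream side had 2781 rises (24.8%) and 489 falls (4.36%). Without AME-d0 replicates 1 and 3 these were 1533 (26.2%) and 212 (3.63%) upstream and 2126 (18.97%) and 456 (4.07%) downstream. Leaving out Con-d0 replicate 5, the Con comparison had 1839 rises (31.4%) and 236 falls (4.04%) upstream. Downstream it then had 2473 (22.1%) and 554 (4.94%). Away from islands and shores the sides came closer, with 37.6% of upstream and 34.5% of downstream bins rising in the Con comparison, and 4.76% and 6.94% falling. No test was made of the sides against each other. Next to the flanks, 4.15% of bins within 1 kb rose and 1.22% fell in the Con comparison, and beyond 5 kb 34.6% rose and 3.61% fell.

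Shares of calls also differed with CpG density. In the Con comparison 6.11% of island bins in the flanks rose and 1.17% fell, against 26.5% and 7.15% of shore bins and 35.9% and 5.94% of the rest. Bins with 1 to 2 CpGs per 100 bp rose in 38.7% of 4724 cases, and bins with 8 or more in 1.95% of 1745. The downstream shores had the highest share of falls among these classes, 8.29% of 3136 bins, and in AME-d21 over AME-d0 they had 6.57%. By feature, 20.2% of exon bins, 24.6% of intron bins and 31.5% of bins between genes rose in the Con comparison, while 4.38%, 5.93% and 3.77% fell. Along the downstream flank the share of rises was 12.6% at 1 to 1.5 kb and 28.0% at 4.5 to 5 kb.

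**Figure D3:**
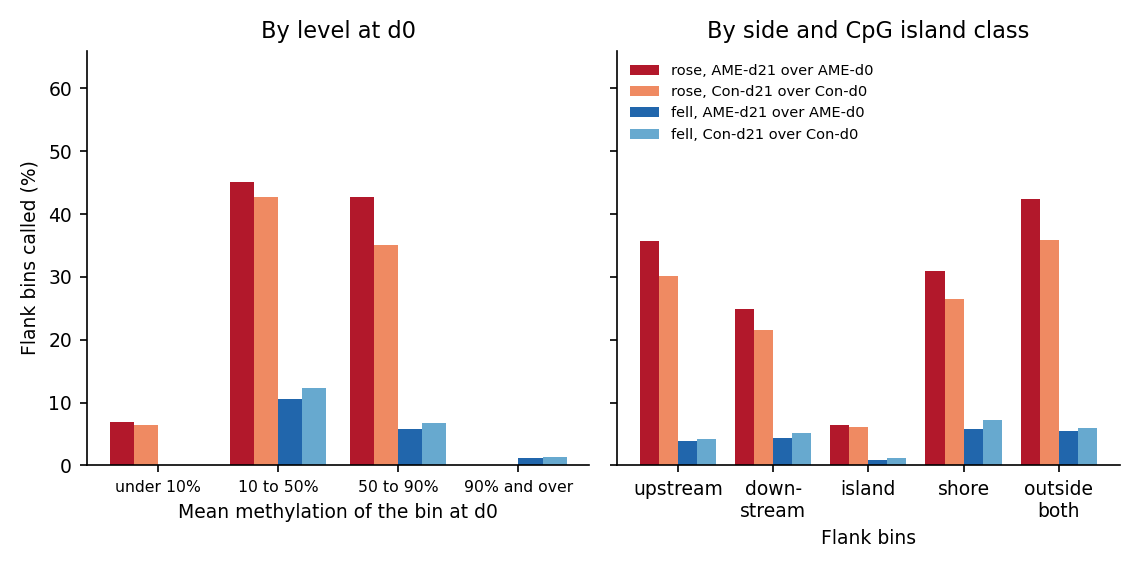
Share of flank bins called as risen or fallen with age (percent of the bins of a class), by level at d0 on the left and by side and CpG island class on the right, for AME-d21 over AME-d0 and Con-d21 over Con-d0. Rises outnumber falls in each class except bins at 90% or more, where falls alone were called, and island bins have smaller shares of both than shores and the rest.

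A bin that starts under 10% cannot fall by 10 points, so the level at d0 bounds both counts. Of 6297 flank bins under 10% in Con-d0, 400 rose. Of 2556 bins between 10 and 50%, 1092 rose and 313 fell, and of 7628 between 50 and 90%, 2681 rose and 508 fell. Of 576 bins at 90% or more, 8 fell. Most called changes were of moderate size, with a median of 17.6 points in the Con comparison and 18.1 in the AME comparison. Rises of at least 40 points numbered 279 in AME-d21 over AME-d0 and 206 in Con-d21 over Con-d0, and falls of that size numbered 85 and 106. At 50 points or more there were 83 rises and 24 falls in the AME comparison and 51 and 25 in the Con comparison. Falls were fewer, but a larger share of them were large: the bins that fell in both comparisons had a median Δme of -25.8 in AME and -27.8 in Con, and those that rose in both had 19.7 and 18.

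The flank of Mn1, a transcriptional coregulator named for a gene disrupted in human meningioma, was among the largest gains. The bin had 76.5, 76.1, 73.3, 70.8 and 69.7% in AME-d21 livers and 67.6, 72.6, 72, 72.6 and 82.3% in Con-d21 livers. At d0 it had 0.855, 7.32, 2.22, 6.25 and 3.42% in AME-d0 livers and 7.41, 8.85, 7, 8.18 and 4.2% in Con-d0 livers. The d0 and d21 livers did not overlap, and Con and AME livers of 1 age did. Δme was 69.2 in AME-d21 over AME-d0 and 66.3 in Con-d21 over Con-d0, and the log2 difference of methylated to unmethylated reads was 5.96 (SE 0.40) and 5.04 (SE 0.30), with limma adjusted p of 3.06e-07 and 2.07e-07. Coverage was 68 to 159 reads, and the shallowest library had 76.5% with a Wilson 95% interval of 65.1 to 85.0%, which covers counting error only.

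Patz1 encodes a zinc finger transcription factor with an AT-hook, and its bin of 10 CpGs had 194 to 497 reads. The bin had 55.6, 50.6, 55.3, 57.7 and 62.4% in AME-d21 livers and 58.2, 55.1, 63.1, 56 and 58.6% in Con-d21 livers. At birth it had 1.16, 1.1, 1.6, 1.84 and 0.525% in AME-d0 livers and 0.669, 1.25, 1.47, 1.21 and 1.4% in Con-d0 livers. All d0 livers were below 2% and all d21 livers above 50%, whichever the maternal environment. Δme was 55.1 in AME and 57 in Con, with log2 differences of 6.46 (SE 0.31) and 6.54 (SE 0.26) and limma adjusted p of 1.58e-08 and 5.96e-09.

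Upstream of Otx1, a homeobox factor of forebrain development, the bin lay between genes and held 4 CpGs. It had 83.6, 87.2, 79.4, 66.2 and 83.8% in AME-d21 livers and 81, 73.8, 74.4, 80.4 and 82% in Con-d21 livers. At d0 the same bin had 18.9, 14.3, 18.1, 18.7 and 22.3% in AME-d0 livers and 11.9, 15.6, 17.5, 12.1 and 22.6% in Con-d0 livers. The ages did not overlap. Δme was 61.6 in AME and 62.4 in Con, and limma gave adjusted p of 1.23e-06 and 5.61e-07. Zfp703, a zinc finger corepressor, had 84.1 ± 6.25% in AME-d21 and 87.8 ± 3.44% in Con-d21 livers, with 16.1 ± 6.09% in AME-d0 and 22.6 ± 8.51% in Con-d0 livers in 7 CpGs of its coding exon, a bin that an antisense transcript also covers (SD, n = 5 each). Pura, which binds single-stranded DNA and RNA, had 88 ± 2.54% in AME-d21 and 87.9 ± 4.49% in Con-d21 livers, with 17.2 ± 6.59% in AME-d0 and 21.4 ± 3.5% in Con-d0 livers in an intronic bin. Further large rises were at Lrrc25 (79.8% in Con-d21 livers against 22.4% in Con-d0 livers, 2 CpGs) and Arhgef40 (66.9% in Con-d21 livers against 9.76% in Con-d0 livers, 3 CpGs).

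Among the losses, Mief2, a mitochondrial outer membrane protein that recruits the fission GTPase Drp1, fell in an intron close to the inner edge of the flank. The bin had 26.3, 19.5, 22.2, 24.2 and 25.6% in AME-d21 livers and 31.6, 25.7, 31.2, 19.5 and 17.8% in Con-d21 livers. In newborn livers it had 79.6, 86.5, 81.4, 83 and 82.5% in AME-d0 livers and 87, 74.4, 86.3, 85 and 80.8% in Con-d0 livers. Every d0 liver was above 74% and every d21 liver below 32%. Δme was -59 in AME and -57.5 in Con, with log2 differences of -3.87 (SE 0.26) and -3.82 (SE 0.32) and limma adjusted p of 3.77e-07 and 2.28e-06. A bin of 1 CpG that starts 2400 bp from it rose in the Con comparison, with 65.8% in Con-d21 against 43.1% in Con-d0.

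Rhoc, a small GTPase of the actin cytoskeleton, lost nearly all methylation of 4 intronic CpGs. They had 4.49, 8.33, 15.8, 10.2 and 3.8% in AME-d21 livers and 10.4, 4.79, 3.28, 3.33 and 7.24% in Con-d21 livers. At d0 they had 62.1, 69.7, 63.8, 65.1 and 58.3% in AME-d0 livers and 65.3, 60, 67, 60.4 and 62.2% in Con-d0 livers. The ages were far apart and the 2 d21 groups overlapped. Δme was -55.3 in AME and -57.2 in Con, with limma adjusted p of 2.35e-06 and 5.73e-07. Upstream of Rhoc, 3 CpGs rose in the Con comparison, with 90.9% in Con-d21 against 74.8% in Con-d0.

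Decr2, the peroxisomal dienoyl-CoA reductase of unsaturated fatty acid breakdown, had 22.1 ± 8.5% in AME-d21 and 21.5 ± 3.74% in Con-d21 livers, with 83.6 ± 1.71% in AME-d0 and 83.3 ± 2.68% in Con-d0 livers in 2 CpGs (SD, n = 5 each). Cenpm, a centromere protein, had 27.9 ± 12.3% in AME-d21 and 26.2 ± 6.17% in Con-d21 livers, with 87.5 ± 4.35% in AME-d0 and 87.9 ± 6.96% in Con-d0 livers in 2 CpGs. The bin assigned to Sirt2, a protein deacetylase, lay 4626 bp upstream of it within a coding exon of Nfkbib, an inhibitor of NF-kappa-B, and had 13.3 ± 5.57% in AME-d21 and 15.5 ± 5.11% in Con-d21 livers, with 75.1 ± 5.24% in AME-d0 and 75.3 ± 8.89% in Con-d0 livers. The bin assigned to Aunip lay within the gene of Paqr7, a membrane progestin receptor, and had 33.5 ± 7.53% in AME-d21 and 33.9 ± 6.4% in Con-d21 livers, with 91.1 ± 0.977% in AME-d0 and 91.1 ± 2.05% in Con-d0 livers. For both, the nearest TSS is thus not that of the gene which holds the bin. A bin of 1 CpG downstream of the Aunip TSS rose in the Con comparison, with 58.4% in Con-d21 against 38.3% in Con-d0.

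**Figure D4:**
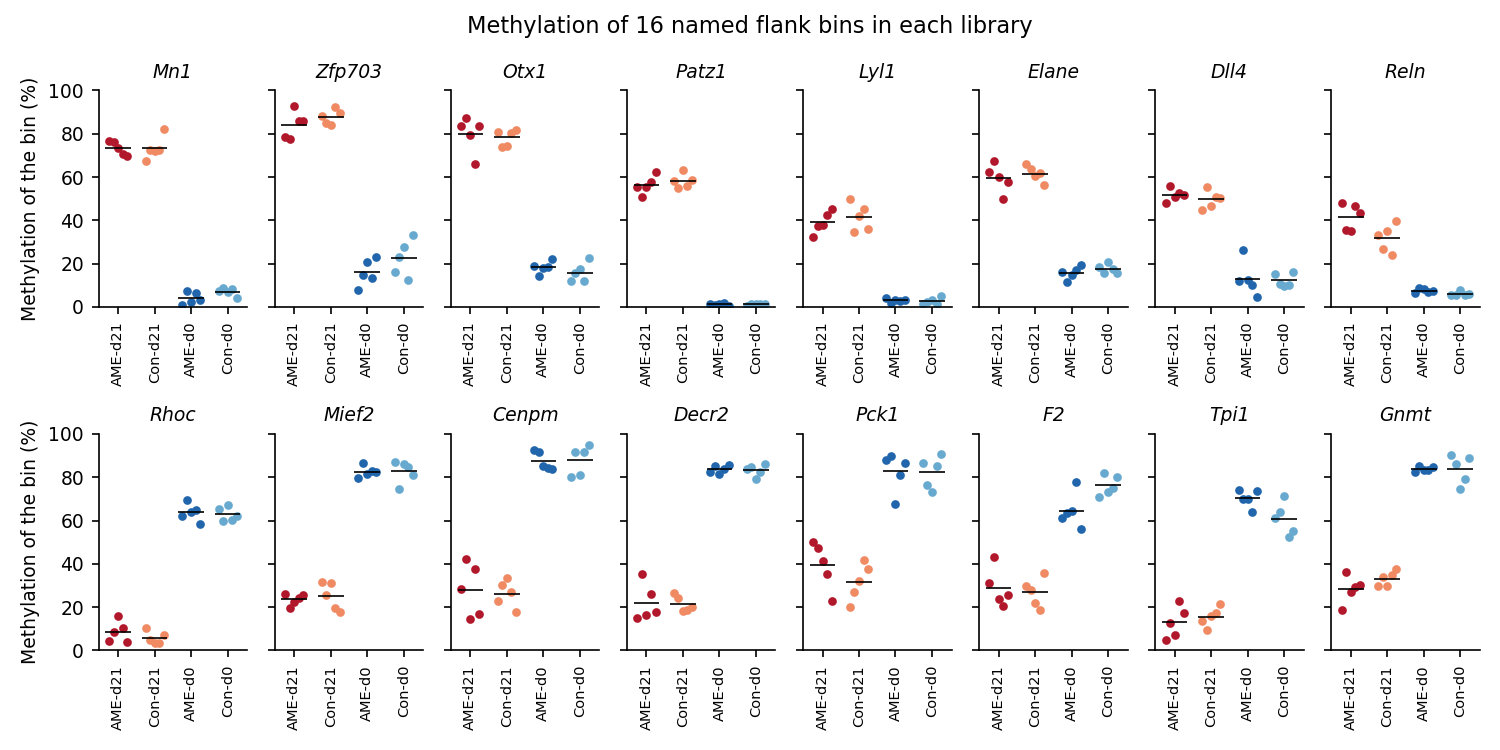
Methylation (percent) of 16 named flank bins in each of the 20 livers, grouped as AME-d21, Con-d21, AME-d0 and Con-d0, with a line at each group mean. The upper panels show bins that rose with age and the lower panels bins that fell, and in each bin the d21 and d0 livers are apart while the AME and Con livers of 1 age overlap.

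Of the 6998 genes with a flank bin, 2781 had a rise, 593 had a fall and 122 had both in the Con comparison. In the AME comparison 3222 had a rise, 512 had a fall and 120 had both. Whether a rise and a fall met in a gene more often than these totals give was not tested. The genes named next were chosen after their values were seen. Near Tpst2, a Golgi tyrosine sulfotransferase, a bin of 3 CpGs had 66.8% in Con-d21 against 28.8% in Con-d0, and a bin of 1 CpG that starts 400 bp away had 4.58% against 56.3%. Near Gse1, a coiled-coil protein found with histone deacetylase corepressors, bins 2600 bp apart had 56.6% against 11.7% and 12.6% against 60.4% in the same groups. Near Csk, a kinase that restrains Src, the values were 69.2% against 23.4% (1 CpG) and 30.3% against 74.9% (6 CpGs), 6400 bp apart, and near Slc38a2, an amino acid transporter, 75.9% against 39.7% and 9.81% against 53.1%, 4000 bp apart. In the Con comparison 250 of the 6998 genes had 3 or more bins that rose and 37 had 3 or more that fell. A gene had a median of 2 flank bins.

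Lists of genes were used to read the flanks by function, 21 in all, chosen with earlier results of these data known. Each is described by its counts beside the flank shares of 24.5% rises and 4.86% falls in Con-d21 over Con-d0. In AME-d21 over AME-d0 the flank shares were 28.6% and 4.21%. Hepatocyte markers had a smaller share of rises (16.7% in Con) and a larger share of falls (58.3%). Of 24 bins near 15 measured marker genes, 4 rose and 14 fell in the Con comparison, with falls at 11 genes and a median Δme of -26.2, and 4 rose and 13 fell in the AME comparison, with a median of -28.3. Leaving out Con-d0 replicate 3 changed the 4 rises of the Con comparison to 2, and the 14 falls stayed 14 without any 1 library. The mean over these bins was 47.5% in AME-d21, 46.9% in Con-d21, 63.3% in AME-d0 and 65.1% in Con-d0.

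Pck1, the rate-limiting enzyme of gluconeogenesis, is an example with 20 to 72 reads in 2 CpGs. The bin had 50, 47.5, 41.2, 35.4 and 23.1% in AME-d21 livers and 20, 26.9, 32, 41.7 and 37.5% in Con-d21 livers. At d0 it had 88.1, 90, 67.9, 81 and 86.5% in AME-d0 livers and 86.7, 76.4, 73.2, 85.3 and 90.7% in Con-d0 livers. The ages did not overlap, and the d21 livers varied widely. Δme was -43.3 in AME and -50.8 in Con, with log2 differences of -2.84 (SE 0.40) and -3.28 (SE 0.37) and limma adjusted p of 9.54e-05 and 2.04e-05. The shallowest library, AME-d21 replicate 1, had 20 reads and a Wilson 95% interval of 29.9 to 70.1%. F2, which encodes prothrombin, had 28.9 ± 8.95% in AME-d21 and 26.9 ± 6.7% in Con-d21 livers, with 64.6 ± 8.01% in AME-d0 and 76.2 ± 4.7% in Con-d0 livers at 1 CpG (SD, n = 5 each). Apoc3, an apolipoprotein that slows the clearance of triglyceride-rich particles, had 27 ± 12.6% in AME-d21 and 31.1 ± 5.68% in Con-d21 livers, with 69.8 ± 3.44% in AME-d0 and 79.2 ± 9.42% in Con-d0 livers at 1 CpG with 10 to 30 reads.

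Glucose and glycogen metabolism had 6 rises (12%) and 13 falls (26%) among 50 bins of 15 genes in the Con comparison. In the AME comparison it had 7 (14%) and 12 (24%). The flank shares were 24.5% and 4.86% in Con and 28.6% and 4.21% in AME. Tpi1, the triosephosphate isomerase of glycolysis, had both. It fell in a coding exon with 46 to 105 reads. The bin had 4.76, 12.8, 7.35, 23.1 and 17.3% in AME-d21 livers and 13.7, 9.59, 16.1, 17.3 and 21.3% in Con-d21 livers. At birth it had 73.9, 69.8, 70, 63.8 and 73.8% in AME-d0 livers and 61.3, 63.8, 71.2, 52.4 and 55.1% in Con-d0 livers. All d21 livers were below 24% and all d0 livers above 52%. Δme was -57.2 in AME and -45.1 in Con, with limma adjusted p of 5.41e-06 and 1.10e-05. Upstream of Tpi1, 2 CpGs rose in the Con comparison, with 78.3% in Con-d21 against 55.3% in Con-d0. Pklr, the liver and red cell pyruvate kinase, rose upstream of its TSS, with 93.9 ± 2.65% in AME-d21 and 95.5 ± 3.45% in Con-d21 livers, with 42.5 ± 11.6% in AME-d0 and 50.1 ± 8.88% in Con-d0 livers at 1 CpG.

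Lipid lists were mixed. In Con, cholesterol synthesis and uptake had 6.67% rises and 26.7% falls, and fatty acid and triglyceride synthesis had 10% and 10%. Cholesterol synthesis and uptake had 1 rise and 4 falls among 15 bins in the Con comparison and 0 and 4 in the AME comparison, and the single rise was lost without any 1 of Con-d21 replicates 1, 2 and 5 or of the 5 Con-d0 replicates and by the quasi-binomial test, while 1 rise appeared in AME without AME-d21 replicate 3. In it, Sc5d, a desaturase of the last steps of cholesterol synthesis, had 19.6 ± 5.85% in AME-d21 and 25.3 ± 0.743% in Con-d21 livers, with 65.8 ± 2.84% in AME-d0 and 67.8 ± 5.85% in Con-d0 livers (3 CpGs, SD, n = 5 each), and Abcg8, a sterol exporter, had 47.3% in Con-d21 livers against 82.4% in Con-d0 livers at 1 CpG. Fatty acid and triglyceride synthesis had 4 rises and 4 falls among 40 bins in the Con comparison, and 7 and 6 in AME. Its largest called change in Con was at Fads1, a fatty acid desaturase, with 16.7 ± 15% in AME-d21 and 12.8 ± 8.23% in Con-d21 livers, with 53.3 ± 12.2% in AME-d0 and 66.2 ± 8.4% in Con-d0 livers at 1 CpG. In AME the ages overlapped at that CpG although it passed the test (limma adjusted p 0.00123).

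Fatty acid oxidation and ketogenesis had 4 rises (16.7%) and 3 falls (12.5%) among 24 bins in Con, and 4 and 1 in AME. Acot1, a cytosolic acyl-CoA thioesterase, fell to 40.1% in Con-d21 livers against 63.3% in Con-d0 livers, and Bdh1, of ketone body metabolism, rose to 85.6% in Con-d21 livers against 46.9% in Con-d0 livers at 1 CpG. Bile acid and cytochrome P450 metabolism had 5 rises (27.8%) and 2 falls (11.1%) among 18 bins in Con. In AME 6 rose and 1 fell, or 2 fell without AME-d21 replicate 4. Slc27a5, the bile acid CoA ligase, had 20.9 ± 10.1% in AME-d21 and 20 ± 13% in Con-d21 livers, with 57.8 ± 12.7% in AME-d0 and 61.5 ± 11.9% in Con-d0 livers at 1 CpG with 14 to 37 reads, so that single livers were imprecise.

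One-carbon metabolism, which supplies the methyl groups of DNA methylation, was read together with the DNA methylation enzymes. Among 33 bins of 14 genes 9 rose (27.3%) and 7 fell (21.2%) in Con, and 8 and 6 in AME. Gnmt, the glycine methyltransferase that consumes S-adenosylmethionine in the adult liver, fell in a bin of 6 CpGs that holds coding exon and UTR and that a non-coding transcript also covers, at 198 to 369 reads. The bin had 18.6, 36.4, 27, 29.3 and 30.3% in AME-d21 livers and 29.8, 33.9, 29.7, 35 and 37.9% in Con-d21 livers. In newborn livers it had 82.7, 85.4, 83.6, 83.4 and 84.8% in AME-d0 livers and 90.5, 86.4, 74.8, 79.1 and 88.7% in Con-d0 livers. Every d0 liver was above 74% and every d21 liver below 39%. Δme was -55.6 in AME and -50.7 in Con, with limma adjusted p of 8.86e-07 and 6.11e-06. A bin of 1 CpG that starts 600 bp away rose in the Con comparison, with 88.2% in Con-d21 against 67.4% in Con-d0. Shmt2, the mitochondrial serine hydroxymethyltransferase, had 26% in Con-d21 livers against 61.5% in Con-d0 livers at 1 CpG.

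Liver transcription factors had 22 rises (23.7%) and 3 falls (3.23%) among 93 bins of 19 genes in Con. The flank shares there were 24.5% and 4.86%. In AME 23 rose and 4 fell (2 falls by the quasi-binomial test). Onecut2 and Gata6, factors of early liver and gut development, had 64.5% in Con-d21 livers against 14.9% in Con-d0 livers and 48.4% in Con-d21 livers against 4.75% in Con-d0 livers, with 3 CpGs each. Nr0b2, the SHP repressor of bile acid synthesis, fell to 5.52% in Con-d21 livers against 47.5% in Con-d0 livers at 1 CpG. Genes of the fetal liver had 12 rises (18.2%) and 2 falls (3.03%) among 66 bins in Con, and 13 and 1 in AME. The falls in Con changed to 1 without any 1 of Con-d21 replicates 1 and 2 and Con-d0 replicates 1, 3 and 4. Those in AME changed to 2 without AME-d0 replicate 3, or without both 1 and 3. Afp, the albumin-like serum protein of the fetus, was one of the 2 falls, with 26.1 ± 5.93% in AME-d21 and 27.4 ± 8.57% in Con-d21 livers, with 62 ± 6.17% in AME-d0 and 62.5 ± 7.67% in Con-d0 livers in 3 CpGs 4824 bp upstream of the TSS (SD, n = 5 each).

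Genes of blood cells were read from 4 lists. Of 79 bins near 16 genes of haematopoietic progenitors and myeloid cells, 18 rose and 4 fell in the Con comparison, and 19 and 3 in AME. Of 45 erythroid bins 10 rose and 0 fell by limma in each comparison, but 1 fell in AME without AME-d21 replicate 1. Of 25 platelet and megakaryocyte bins 7 rose and 1 fell in Con, and 8 and 1 in AME, and of 26 B cell bins 6 rose and 0 fell in Con, and 3 and 0 in AME. By the quasi-binomial test 0 erythroid and 0 B cell bins fell too. The shares of rises in Con, 22.8%, 22.2%, 28.0% and 23.1% in this order of lists, lie near the flank share of 24.5%, and the shares of falls were 5.06%, 0%, 4% and 0%, against 4.86%. In AME the rises were 24.1%, 22.2%, 32.0% and 11.5%, against a flank share of 28.6%, so that the B cell list had the lowest share of the 4 there. The amounts of these cells were not measured here, and their part in the results was not tested.

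The bin assigned to Elane, the neutrophil elastase, lay 4358 bp upstream of it within a coding exon of Prtn3, the neighbouring neutrophil proteinase. The bin had 62.1, 67.5, 59.9, 49.7 and 57.7% in AME-d21 livers and 66, 63.8, 60.3, 61.9 and 56.2% in Con-d21 livers. At birth it had 16, 11.7, 14.9, 16.9 and 19.5% in AME-d0 livers and 18.3, 15.6, 20.9, 17.5 and 15.9% in Con-d0 livers. The ages did not overlap, and AME and Con overlapped at both ages. Δme was 43.6 in AME and 44 in Con, with limma adjusted p of 5.40e-06 and 2.70e-06.

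Lyl1, a helix-loop-helix factor of blood stem cells, rose in a CpG-dense coding exon that also lies within the annotated bounds of Nfix. The bin had 32.5, 37.5, 37.7, 42.5 and 45.5% in AME-d21 livers and 50, 34.8, 42.2, 45.2 and 36% in Con-d21 livers. In newborn livers it had 4.24, 1.64, 3.24, 2.54 and 3.4% in AME-d0 livers and 1.25, 2.33, 3.16, 1.37 and 5.21% in Con-d0 livers. No d0 liver was above 6% and no d21 liver below 32%. Δme was 36.1 in AME and 39 in Con, with limma adjusted p of 4.81e-07 and 1.39e-06. A bin of 2 CpGs upstream of Lyl1, 4800 bp away, fell in both comparisons, with 39.0% in AME-d21 and 37.9% in Con-d21 against 67.65% in AME-d0 and 65.8% in Con-d0. The other falls of this list in Con were at Gata2, a factor of blood stem cells, and in 2 neighbouring bins of Gfi1, a zinc finger repressor of the granulocyte lineage, chosen after their values were seen. The Gfi1 bin of 12 CpGs had 4.15% in AME-d21 and 8.24% in Con-d21 against 40.55% in AME-d0 and 38.4% in Con-d0, and the Gata2 bin had 9.10% in Con-d21 against 21.1% in Con-d0. Coro1a, an actin regulator of leukocytes, had 80.2% in Con-d21 livers against 43.5% in Con-d0 livers in 6 CpGs. Sptb, the beta-spectrin of red cells, had 39.4% in Con-d21 livers against 9.49% in Con-d0 livers, and Zfpm1, the GATA cofactor of erythroid and platelet lineages, 78.3% in Con-d21 livers against 32.7% in Con-d0 livers at 1 CpG. Fermt3, the kindlin of platelets and leukocytes, had 64.5% in Con-d21 livers against 17.7% in Con-d0 livers at 1 CpG, and Blnk, an adaptor of the B cell receptor, 66.2% in Con-d21 livers against 31% in Con-d0 livers in 3 CpGs.

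Resident non-parenchymal cells and bile duct cells were read from 4 further lists. Endothelial genes had 11 rises (22%) and 1 fall (2%) among 50 bins in Con, where the flank shares were 24.5% and 4.86%. In AME 13 rose and 1 fell, and the fall in Con was lost without Con-d0 replicate 2. Dll4, the Notch ligand of endothelium, had 51.8 ± 2.87% in AME-d21 and 49.7 ± 4.08% in Con-d21 livers, with 13.1 ± 8.04% in AME-d0 and 12.3 ± 3.05% in Con-d0 livers in 8 CpGs upstream of its TSS, within a non-coding transcript (SD, n = 5 each). Clec4g, a lectin of liver sinusoidal endothelium, had 83.8 ± 6.65% in AME-d21 and 83 ± 11.5% in Con-d21 livers, with 23.7 ± 4.12% in AME-d0 and 28.6 ± 8.49% in Con-d0 livers at 1 CpG. Kupffer cell genes had 5 rises (22.7%) and 1 fall (4.5%) among 22 bins in Con, and 6 and 0 in AME. The fall in Con was lost without any 1 of Con-d21 replicates 1, 2 and 4 and Con-d0 replicates 1, 4 and 5. In AME 1 fall appeared without AME-d0 replicate 3, or without both 1 and 3. C1qa, a complement subunit made by macrophages, had 92.9% in Con-d21 livers against 77.5% in Con-d0 livers. Stellate cell and fibroblast genes had 9 rises (29.0%) and 0 falls among 31 bins in each comparison by limma. The quasi-binomial test gave 0 falls too. Reln, which encodes reelin, made by stellate cells, had 41.7 ± 6.05% in AME-d21 and 31.8 ± 6.49% in Con-d21 livers, with 7.47 ± 0.891% in AME-d0 and 6.13 ± 0.872% in Con-d0 livers in 6 CpGs. Cholangiocyte genes had 9 rises and 6 falls among 37 bins in Con, and 10 and 5 in AME, so that 16.2% fell in Con, at 3 genes, against the flank share of 4.86%. Krt7, a keratin of bile duct cells, held 3 of the falls, and its bin of 1 CpG had 19.1% in Con-d21 livers against 50% in Con-d0 livers. Prom1, a membrane protein of bile duct and progenitor cells, rose to 85.2% in Con-d21 livers against 62.5% in Con-d0 livers.

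**Figure D5:**
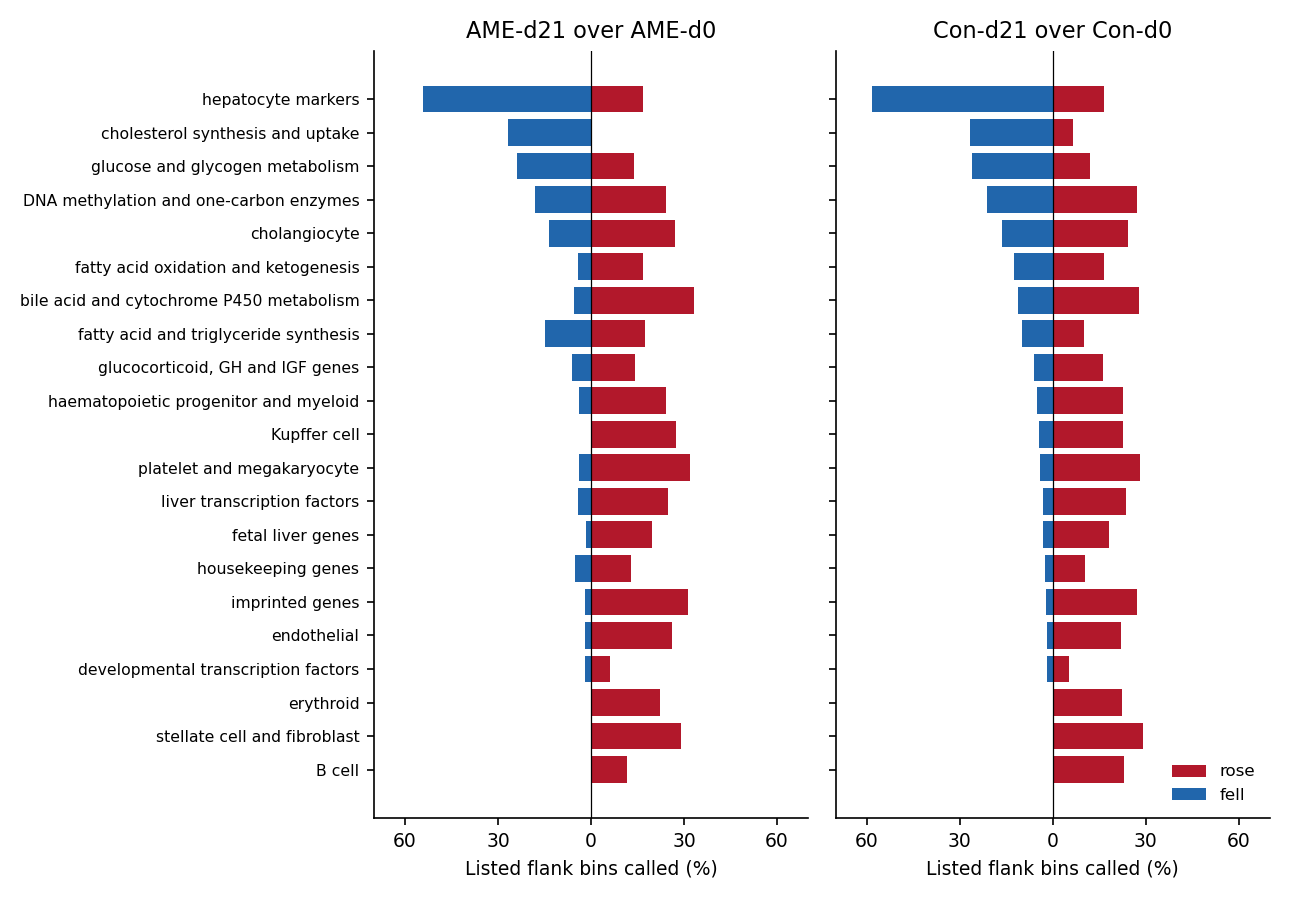
Share of flank bins that rose and fell (percent) for each of the 21 gene lists, with falls drawn to the left and rises to the right, in AME-d21 over AME-d0 and Con-d21 over Con-d0. Hepatocyte markers have the largest share of falls among the lists (54.2% and 58.3%), and developmental transcription factors have 6.01% and 5.41% rises.

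Developmental transcription factors were the largest list and the least methylated: 499 bins of 85 genes averaged 6.41% in AME-d21, 6.41% in Con-d21, 3.97% in AME-d0 and 4.17% in Con-d0. In the Con comparison 27 rose (5.41%) and 9 fell (1.80%), and in AME 30 and 10. Meis2, a homeobox cofactor, rose in an intron (75.7% in Con-d21 livers against 29.7% in Con-d0 livers), while Hoxa5, of the Hoxa cluster, fell in its coding exon (12.8% in Con-d21 livers against 43.6% in Con-d0 livers), which other transcripts of the cluster overlap. Imprinted genes had 13 rises (27.1%) and 1 fall (2.08%) among 48 bins in Con, where the flank shares were 24.5% and 4.86%. In AME 15 rose and 1 fell. There were 2 falls in Con without Con-d0 replicate 4, and in AME without AME-d0 replicate 3, or without both 1 and 3. Upstream of Cdkn1c, the maternally expressed inhibitor of the cell cycle, 1 CpG had 88.2 ± 13.1% in AME-d21 and 92 ± 4.55% in Con-d21 livers, with 43.2 ± 12.1% in AME-d0 and 49.6 ± 4.82% in Con-d0 livers (SD, n = 5 each), and upstream of Dlk1, a paternally expressed gene of hepatoblasts, 1 CpG had 81 ± 7.75% in AME-d21 and 84.3 ± 9.22% in Con-d21 livers, with 43 ± 13.2% in AME-d0 and 51.1 ± 10.8% in Con-d0 livers.

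Of 49 bins in the list of glucocorticoid, growth hormone and insulin-like growth factor genes, 8 rose (16.3%) and 3 fell (6.12%) in Con. In AME 7 rose and 3 fell. Upstream of Fkbp5, the glucocorticoid-induced cochaperone of the glucocorticoid receptor, 1 CpG with 11 to 28 reads had 59.8 ± 14.7% in AME-d21 and 50.9 ± 19.1% in Con-d21 livers, with 0.87 ± 1.94% in AME-d0 and 2.08 ± 2.95% in Con-d0 livers. At d0, 7 of the 10 livers had no methylated read there, which at their depth allows up to 12 to 20%. AME and Con overlapped at both ages. Downstream of Fkbp5, 5400 bp away, a bin of 1 CpG fell in both comparisons, with 20.9% in AME-d21 and 22.9% in Con-d21 against 51.0% in AME-d0 and 54.1% in Con-d0. Prlr, the prolactin receptor, had 30.6% in Con-d21 livers against 57.8% in Con-d0 livers in an intron. Housekeeping genes had 4 rises (10.3%) and 1 fall (2.56%) among 39 bins in Con and 5 and 2 in AME. The falls were 2 in Con without Con-d0 replicate 2 and 1 in AME without any 1 of AME-d21 replicates 2 and 3 and AME-d0 replicates 2 and 5, and the rises in AME were 3 without AME-d0 replicates 1 and 3. The fall in Con was 3255 bp upstream of Actb, the cytoplasmic actin, with 0.556% in Con-d21 livers against 28.9% in Con-d0 livers at 1 CpG.

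Where they were measured, promoter cores of the same genes mostly averaged under 10% in Con-d0. Genes without a measured core are not covered by this. Of the 2781 genes with a flank bin that rose in the Con comparison, 1740 also had bins within 1 kb of their own TSS, and in 1391 of these (79.9%) the core averaged under 10% in Con-d0, with a median core Δme of 0.121. The core rose by 10 points or more, without a test, in 165 of them and fell by as much in 28. Of the 593 genes with a flank fall, 400 had a measured core, 332 (83.0%) were under 10% in Con-d0 and the median core Δme was 0. Genes with at least 1 flank bin that was not called had 85.9% of their 3693 measured cores under 10% in Con-d0. These include genes that also had called bins, so the sets of genes overlap.

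The 2 age comparisons share no livers, so their calls can be set side by side. Of the bins that rose, 3367 were called in both, which is 69.1% of the AME rises and 80.7% of the Con rises, and 634 bins fell in both, 88.3% of the AME falls and 76.5% of the Con falls. The flank bins that rose in both age comparisons numbered 3283 without AME-d21 replicate 4 and 2752 without AME-d0 replicates 1 and 3. The flank bins that fell in both age comparisons numbered 623 and 593. Over all 17057 flank bins, the 2 sets of Δme had the same sign in 82.6% and a Pearson correlation of 0.91 across bins, which are not independent replicates. Shared calls and correlation were not computed over all autosomal bins, so they cannot be called particular to the flanks. One bin was called in opposite directions, a single CpG near Cul7, a cullin of ubiquitin ligases, with a Δme of 20.1 in AME and -16.1 in Con. Its difference between the comparisons did not pass (limma interaction, adjusted p = 0.822).

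AME was compared with Con at each age to see whether the maternal environment moved the flanks. At d0, mean flank methylation was 40.3 ± 1.29% in AME-d0 and 41.4 ± 0.813% in Con-d0, a difference of -1.10 points, and the groups overlapped. Pooled over the reads of each library, the difference was -2.08 points. Deep bins weigh more in it, and the weights of bins differ between libraries. No pooled value without AME-d0 replicates 1 and 3 was computed. Upstream, the AME-d0 livers had 46.8, 50.6, 48.5, 49.97 and 50.7% and the Con-d0 livers 50.05, 50.05, 50.3, 50.3 and 52.7%. The low values were those of replicates 1 and 3 and the high value that of Con-d0 replicate 5. Without AME-d0 replicates 1 and 3 the flank mean was 41.2 ± 0.381% in AME-d0 (n = 3) and the difference -0.243 points, and without Con-d0 replicate 5 it was -0.740. The same libraries were low or high within 1 kb and beyond 5 kb of a TSS, where AME-d0 means were 6.08% and 63.4% and Con-d0 means 6.26% and 65.1%.

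By bin, limma called 0 flank bins in AME-d0 over Con-d0, as it called 0% of all bins, with a lowest adjusted p of 0.847. At an unadjusted p under 0.05 there were 1000 flank bins (5.86%), where all bins had 5.72%, and the quasi-binomial test called 0 and had 634 at that level (3.72%, against 3.67% of all bins). Every AME-d0 liver lay above every Con-d0 liver in 0.141% of flank bins and below in 0.633%, against 0.141% and 0.678% of all bins. Without a test, 88 flank bins were higher by 10 points or more in AME-d0 and 498 were lower, 0.516% and 2.92% of flank bins, against 0.688% and 3.69% of all bins. The shares of separated bins and of bins past 10 points were thus at or under those of all bins. These counts moved with the libraries that stood apart. Without AME-d0 replicates 1 and 3, 268 flank bins were higher by 10 points or more and 394 lower (1.57% and 2.31%, against 2.04% and 2.67% of all bins), and 1.26% were separated with AME-d0 higher and 1.63% with AME-d0 lower, against 1.34% and 1.68% of all bins. Without Con-d0 replicate 5, 175 were higher and 471 lower (1.03% and 2.76%, against 1.30% and 3.44% of all bins). The separated shares were then 0.375% and 0.885%, against 0.393% and 0.947% of all bins. Groups of fewer livers separate more often.

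Bins with the clearest separation are given as descriptions, since they were chosen on these values. Downstream of Bmp8a, a growth factor of the BMP family, the 2 CpGs of an intronic bin had 43.3, 39.1, 40.4, 34 and 25.9% in AME-d0 livers and 55.9, 50, 62.5, 55.6 and 59.6% in Con-d0 livers, a Δme of -20.2 with a limma adjusted p of 0.847. The groups did not overlap, but with 20 to 74 reads single livers were imprecise. At d21 the same bin had 42.6 ± 15.1% in AME-d21 and 34.1 ± 9.49% in Con-d21, with AME now the higher. Amotl1, an angiomotin-like scaffold of cell junctions, had 57.2 ± 6.04% in AME-d0 and 73.8 ± 4.27% in Con-d0. Klhl21, an adaptor of the cullin ligase in mitosis, and Rtn2, a reticulon of the endoplasmic reticulum, were higher in AME-d0 in every liver, at 61.2 ± 0.822% against 50.9 ± 4.25% and 82.5 ± 2.36% against 74.5 ± 1.59% (SD, n = 5 each). None of these passed the adjusted test.

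At d21, mean flank methylation was 46.8 ± 0.221% in AME-d21 and 46.7 ± 0.132% in Con-d21, a difference of 0.083 points, or 0.134 without AME-d21 replicate 4. Pooled over reads it was -0.102 points, so its direction was not stable. limma called 0 flank bins in AME-d21 over Con-d21, as 0% of all bins, with a lowest adjusted p of 0.766. At an unadjusted p under 0.05 there were 891 flank bins (5.22%), where all bins had 5.04%, and the quasi-binomial test called 0 and had 446 (2.61%, against 2.58% of all bins). Groups did not overlap, with AME-d21 higher, in 0.375% of flank bins and, with AME-d21 lower, in 0.369%, against 0.331% and 0.33% of all bins. Without AME-d21 replicate 4 these were 0.774% and 0.786% of flank bins, against 0.73% and 0.644% of all bins. By size alone 180 flank bins were higher by 10 points or more in AME-d21 and 181 lower, 1.06% in each direction, against 1.05% and 1.09% of all bins.

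The Gse1 bin that rose with age, in a coding exon 1762 bp downstream of the TSS that a further annotated gene model also covers, had the largest difference between AME-d21 and Con-d21 among the 42 bins named for their age change. The bin had 73.2, 73.3, 72.1, 74.4 and 72.7% in AME-d21 livers and 53, 58.9, 49, 65.6 and 56.2% in Con-d21 livers. At d0 it had 5.73, 4.42, 10, 2.97 and 10.4% in AME-d0 livers and 15.6, 11.4, 10.1, 8.33 and 13.2% in Con-d0 livers. Every AME-d21 liver was above every Con-d21 liver, and at d0 the order was the other way with overlap. Δme was 16.6 in AME-d21 over Con-d21, with a log2 difference of 1.04 (SE 0.26) and a limma adjusted p of 0.978, and it was -5.04 in AME-d0 over Con-d0. Klf15, a factor of fasting metabolism in liver, had 20.9, 18, 10.7, 11.1 and 20.6% in AME-d21 livers and 27.5, 30.2, 24.7, 32.9 and 26.1% in Con-d21 livers in 4 CpGs of a coding exon. The groups did not overlap there either, and the adjusted p was 0.978 by limma. Otub2, a deubiquitinase, and Nfix, a nuclear factor I protein, had 87.7 ± 1.61% against 73.9 ± 8.84% and 59.2 ± 3.26% against 70.8 ± 5.57% in AME-d21 against Con-d21. These bins too were chosen on these values.

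Over the 42 bins, AME-d0 was higher than Con-d0 in 14 and lower in 28. Without AME-d0 replicates 1 and 3 these were 16 and 26. Differences at d0 lay between -12.8 points at Fads1 and 9.49 at Tpi1. AME-d21 was higher than Con-d21 in 20 and lower in 22, between -11.0 at Meis2 and 16.6 at Gse1. The lowest limma adjusted p among the 42 bins was 0.855 at d0 and 0.978 at d21. These bins were chosen by their age change, those from the lists by that in Con-d21 over Con-d0. The Con values thus entered the choice, and the directions are descriptions only. Shares by direction over all bins were not counted. The median difference at d0 was -0.238 points in flank bins and -0.370 in all bins. All 21 gene lists had 0 called bins in both AME comparisons, and their median differences lay between -3.28 and 0.275 points at d0 and between -1.33 and 1.03 at d21. Whether the age change itself depended on the maternal environment was tested as an interaction over all 20 livers. By limma 0 flank bins were called, as 0% of all bins, with a lowest adjusted p of 0.795. At an unadjusted p under 0.05 there were 912 flank bins (5.35%). Among the other bins, 4.54% of those within 1 kb of a TSS and 5.23% of those beyond 5 kb were at that level. The quasi-binomial test was not run on the interaction. With 5 livers a group and a median SD between livers of 6.10 to 6.87 points in bins of intermediate level, differences in single bins may not be detectable. This holds for larger ones too. The separated bins of Bmp8a at d0 and Gse1 at d21 were not called, the latter with a difference of 16.6 points. The 0 calls therefore do not exclude differences of that size.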

How the data were processed

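RRBS was analysed for the 20 livers, grouped by their labels. For each library the authors deposited, per CpG, counts of methylated and of all reads, not normalized, and the percent methylation, which is 100 times their ratio. Only the deposited counts were used. FastQC, Trim Galore, BWA and Bismark, and the build mm10, are credited to the submitters' processing notes, with no versions. Removal of duplicates and the merging of strands are "not given in the sources used here", and PCR copies may be counted. Positions were checked against GRCm38, and 1 that is no CG was left out. TSSs, exons and coding parts came from GENCODE M21, and islands were found as 500-bp windows of 55% GC or more in which observed CpGs were 0.65 or more of those expected. Sequences are GRCm38.

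CpGs that passed the 10-read minimum in every library were summed in 200-bp bins by position. Every autosomal bin was fitted with limma 3.58.1 (R 4.3.3) on the 2 groups compared, on log2 ratios with 1 read added, with Benjamini-Hochberg adjustment over all bins, and the interaction on all 4 groups. A quasi-binomial logistic test served as a second tool. Python 3.11.15, numpy 2.4.6, scipy 1.17.1, pandas 2.3.3, numba 0.67.0 and matplotlib 3.10.9 did the rest, and the fits were tested on simulated data. Means over bins carry no p-value. Intervals are Wilson 95%, and a count of 0 was taken to allow 3.

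The members and gene lists were chosen with earlier results of these data known. Named bins are, for each age comparison, the 8 largest rises and 8 largest falls whose ages do not overlap, with 2 or more CpGs and 1 per gene, leaving out unnamed gene models, and up to 3 called bins per list, and the text gives a part of them. The bins named for AME and the genes with a rise and a fall were chosen after their values were seen. Coverage, bin size, CpGs per bin, reads added, test, fit, minimum difference, TSS definition and libraries were varied. The 21 lists hold 622 genes. The deposited percent values, chromosomes X and Y (except for the check of labels) and RNA-seq were not used here. A few named bins are not reported here.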

Additional observations from a re-analysis of the deposited data

Results flagged for a closer look

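Groups of 5 libraries were searched for a liver far from the other 4, by Dixon's test at its 95% level, in 216 groups of values, of which chance flags about 1 in 20, and 9 values met it. Con-d0 replicate 5 had a mean flank methylation of 42.84%, where the other Con-d0 livers had 40.93 to 41.1%. On the upstream side it had 52.65% (others 50.05 to 50.33%), and on the downstream side 37.73% (others 36.17 to 36.3%). In single bins, the Aunip flank had 94.71% in Con-d0 replicate 4 (others 89.91 to 90.76%), the Reln flank 7.631% in Con-d0 replicate 3 (others 5.556 to 6.154%), the Fkbp5 flank 4.348% in AME-d0 replicate 5 (others 0%, which allows up to 12 to 20% at the depth of the livers without a methylated read) and the Actb flank 2.778% in Con-d21 replicate 4 (others 0%, which allows up to 6.82 to 10.7%). AME-d21 replicate 4 had 2.877 reads on chromosome X per 100 autosomal reads and 16.19 reads on the short arm of Y per 1000000, where the other AME-d21 libraries had 1.528 to 1.546 and 189.4 to 213.9.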

How the results depend on the processing

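The 4173 rises and 829 falls of Con-d21 over Con-d0 and the 4873 rises and 718 falls of AME-d21 over AME-d0 moved by over 1.5 times with the unit tested and the size required. They were 2038 and 345 in AME and 1814 and 383 in Con with 20 reads per CpG in all libraries, where 7491 flank bins were left. They were 10982 and 1818 in AME and 9845 and 2017 in Con over single CpGs, and 1918 and 319 in AME and 1667 and 356 in Con in bins of at least 3 CpGs. With at least 20 points required they were 1865 and 452 in AME and 1463 and 521 in Con, and with no minimum difference the Con rises were 6350. As shares the 20-read bins gave 24.2% rises and 5.11% falls in Con. Leaving out 1 library at a time gave 4264 to 4838 rises and 675 to 708 falls in AME and 3877 to 4312 and 782 to 809 in Con, and 0 calls throughout in both AME comparisons and the interaction. The mean difference of 5.33 points in Con was 3.53 when pooled over reads, where AME-d0 minus Con-d0 was -2.08 and AME-d21 minus Con-d21 turned to -0.102, and 6.38 with the nearest transcript start. With 1 library left out, the mean differences ran from 6.04 to 6.79 (AME-d21 minus AME-d0), 5.21 to 5.69 (Con-d21 minus Con-d0), -1.37 to -0.623 (AME-d0 minus Con-d0) and -0.00766 to 0.134 (AME-d21 minus Con-d21).

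With a replicate block the counts were 4767 and 709 in AME and 4066 and 800 in Con, with 0 calls between AME and Con. Same-numbered livers shared only a number, with correlations of -0.0363 to 0.0582 between their deviations, so the block marks no pairing. The named bins kept their call in 840 of 840 fits with 1 library left out and in 84 of 84 each with 0.5 read added, the quasi-binomial test and the block. They were chosen on the same data by the size of their change, so keeping the call was likely from the start. Of 84 counts over the gene lists, 14 moved by over 1.5 times when 1 library was left out, none of them a count above 4, and 2 did with the quasi-binomial test. Without AME-d0 replicates 1 and 3, 4 of 42 did, 1 of them a count of 5. The alternatives on list counts, on shared calls, on counts by side and by size, on separated bins and on means without AME-d0 replicates 1 and 3 were chosen after seeing the data. Bins with 1 CpG and under 20 reads limit the precision of single livers.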
